A study of Mus musculus with 10 samples.

Results

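Interferon-stimulated genes (ISGs) were followed in cultured peritoneal macrophages of Mac-GsαKO mice (KO, 5 libraries) and of control mice (CTR, 5 libraries), both aged 6 to 8 weeks and profiled by bulk RNA sequencing without added treatment. A list of 35 ISGs was taken by gene symbol from the 53465 genes of the count table, and all 35 were found. Members were used where they had a CPM (counts scaled to a common library size) of at least 1 in at least 5 libraries, which left 34. Per their name, Mac-GsαKO mice lack in macrophages Gsα, the G protein subunit through which hormone receptors switch on cyclic AMP production. What drives the deletion, its alleles and what the CTR mice carry were not stated in the labels. Nor was it stated whether libraries stem from different mice, so all errors and tests refer to the spread among libraries, which may be technical.

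Type I interferons signal through the IFNAR receptor to the kinases JAK1 and TYK2. They lead to a complex that holds STAT2 and IRF9 and binds the interferon-stimulated response element (ISRE) in promoters. Interferon-γ signals through its own receptor and acts on promoters at the gamma-activated sequence (GAS). Macrophages hold a low level of this programme without infection and raise it strongly on contact with virus, bacterial products or interferon.

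Totals ranged from 16877249 to 19235777 counts in KO libraries and from 15664243 to 18028974 counts in CTR libraries. Gnas, which encodes Gsα, averaged 40.2 ± 2.62 CPM in KO and 435 ± 62.4 CPM in CTR (SD, n = 5 each). A two-sided exact permutation test gave p = 0.00794, which is the lowest value possible with 252 arrangements. The libraries CTR 4 and CTR 5 stood apart from the rest on the first principal component (26.3% of variance). Both were at -34.7, against -18.5 to -6.85 in the other CTR libraries and 11.6 to 28.7 in KO. This component also separated the genotypes, and CTR 4 and CTR 5 lay at its end farthest from KO. Several values are also given without CTR 4 and CTR 5, a choice made from these same data. They did not deviate alike. On the second component (19.5%) CTR 4 stood alone at -46.7, while CTR 5 was at 9.46 and the other CTR libraries at 15.7 to 25.6. All 10 macrophage markers listed, among them Adgre1 and Csf1r, were expressed above the filter on low counts. Their summed level was 16588 to 18911 CPM in KO and 31971 to 40418 CPM in CTR. Of this the lysozyme gene Lyz2 averaged 9240 CPM in KO and 26528 CPM in CTR. It was the 1 marker called lower (adjusted p = 2.03e-05 by edgeR), where 2.11% of all genes tested were. The other 9 markers summed to 7472 to 9501 CPM in KO and 7123 to 8707 CPM in CTR. Csf1r and Itgam were called higher, where 1.83% of all genes tested were (log2 fold changes 0.46 and 0.79, adjusted p = 0.0235 and 0.0494 by edgeR).

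No member of the ISG list passed the test between genotypes. Of the 34 members, 0 were higher and 0 lower in KO at an adjusted p under 0.05 by the edgeR quasi-likelihood test with Benjamini-Hochberg adjustment over 13203 genes, against 1.83% higher and 2.11% lower (3.94% together) of all genes tested. At an unadjusted p under 0.05, 1 member (Oasl1) was higher and 2 (Oas1a and Bst2) were lower, where 10.0% and 11.9% of all genes tested were. The DESeq2 Wald test called 0 members (9.96% of its genes) and limma voom with sample quality weights called 1, Oas1a, as lower (14.5% of its genes). The fitted log2 fold change (KO over CTR) was above 0 in 18 members and below 0 in 16. Its median was 0.057, against -0.0058 over all genes tested. The genotypes overlapped in all 34 members, whereas they did not overlap in 7.80% of all genes tested.

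**Figure D1:**
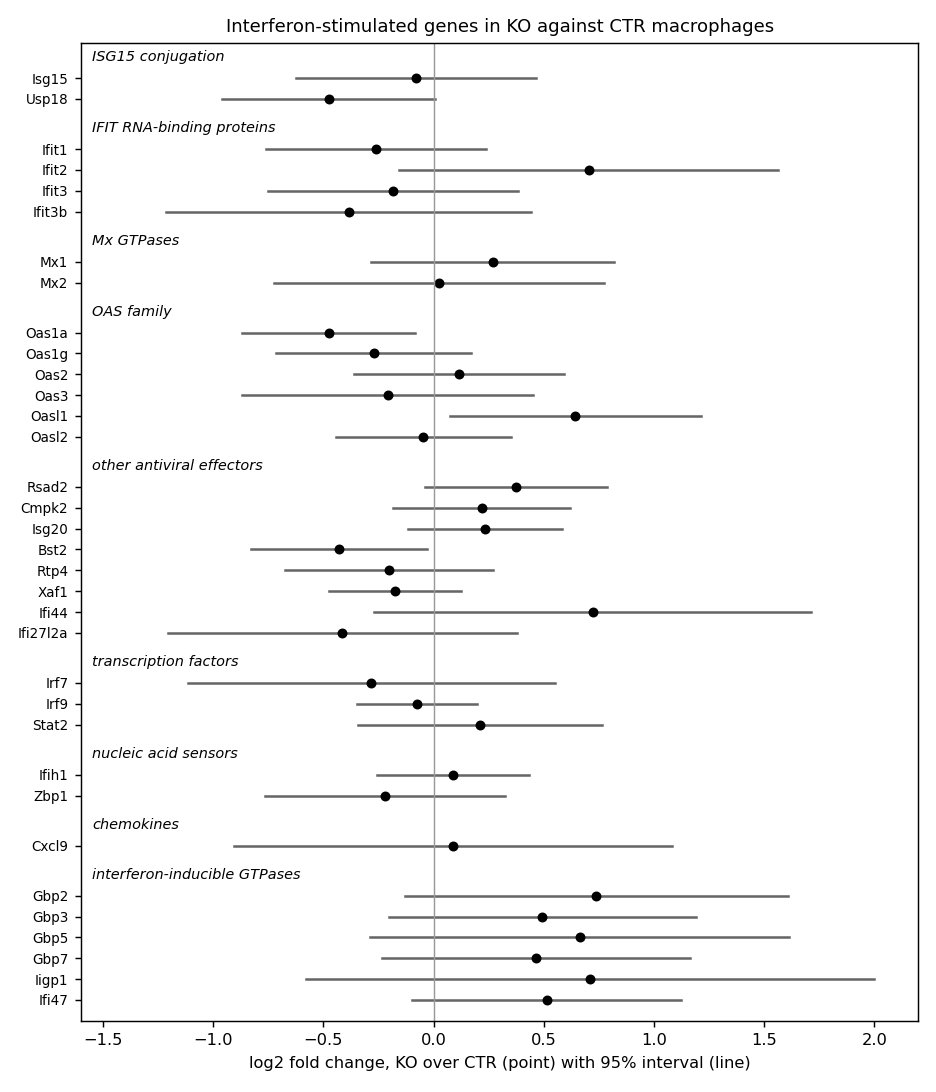
Log2 fold change of each of the 34 ISGs used, KO over CTR (points, horizontal axis), with the 95% interval of the edgeR fit (lines), grouped by role. The interval of Oasl1 lies above 0 and those of Oas1a and Bst2 lie below 0, all before adjustment, and the 6 GTPase genes at the bottom have positive values with wide intervals.

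A missed threshold does not show equal levels, and the intervals give the changes the libraries allow. For 21 of the 34 members the 95% interval of the fold change lay within a factor of 2 either way. The other 13 included all 6 interferon-inducible GTPases. ISGs varied more between libraries of 1 genotype than genes in general did: the median SD of log2(CPM + 1) was 0.291 in KO and 0.458 in CTR over the members, and 0.158 in KO and 0.235 in CTR over the 12437 tested genes at or above the level of the lowest member.

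The differences between libraries of the same genotype followed gene groups. A score per library, the mean over members of log2(CPM + 1) centred on each gene's mean, was 0.17 in KO 1, -0.20 in KO 2, 0.14 in KO 3, 0.40 in KO 4 and -0.25 in KO 5. In CTR it was -0.020 in CTR 1, 0.21 in CTR 2, -0.022 in CTR 3, -0.63 in CTR 4 and 0.20 in CTR 5. The mean was 0.053 ± 0.270 in KO and -0.053 ± 0.344 in CTR (SD, n = 5 each), a difference smaller than either SD. CTR 4 was the lowest CTR library for 26 of 34 members (76.5%), against 27.8% of all genes tested. CTR 4 also had the largest share of CPM in the shortest genes (the lowest 25% by length), 27.6%, against 23.1% to 25.4% in the other CTR libraries and 21.7% to 22.9% in KO, and the part of this in its low ISG values was not tested. KO 5 was the lowest KO library for 20 members (58.8%), against 23.1% of all genes tested. At the upper end the members parted: CTR 5 was the highest CTR library for 15 members and CTR 2 for 14, while KO 3 was the highest KO library for 16 and KO 4 for 14.

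**Figure D2:**
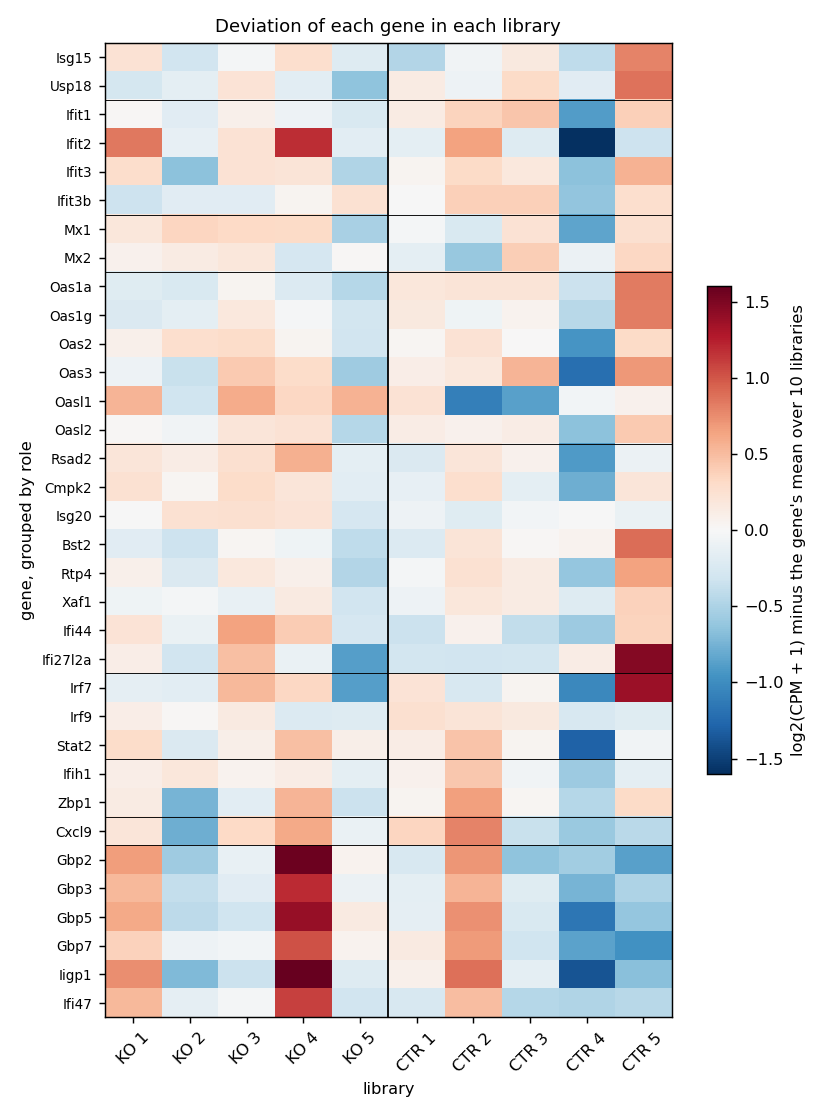
Level of each of the 34 ISGs (rows, grouped by role) in each library (columns, KO left of CTR) as log2(CPM + 1) minus the gene's mean over the 10 libraries. The GTPases at the bottom are high in KO 4, KO 1 and CTR 2, Irf7, Ifi27l2a, Bst2 and Oas1a are high in CTR 5, and most rows are low in CTR 4.

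The interferon-inducible GTPases, which attack the vacuoles of intracellular microbes and are known for their strong response to interferon-γ, shared a pattern across libraries. Gbp2 (ENSMUSG00000028270), a guanylate-binding protein gene and the member of this group with the highest level per transcript length (FPKM), stood at 132, 55.1, 76.0, 247 and 86.0 CPM in KO 1 to KO 5, against 69.1, 135, 52.6, 56.0 and 44.9 CPM in CTR 1 to CTR 5. KO 4 and KO 1 in one genotype and CTR 2 in the other were high, and the genotypes overlapped. Its log2 fold change was 0.74 (SE 0.40, 95% interval -0.13 to 1.61, adjusted p = 0.305 by edgeR), and 0.49 without CTR 4 and CTR 5. Within KO the highest library held 4.49 times the level of the lowest, more than the fitted fold between genotypes of 1.67. Ifi47 (ENSMUSG00000078920), an immunity-related GTPase gene, had 57.5, 35.8, 38.8, 86.0 and 32.0 CPM in KO and 33.0, 56.4, 28.6, 28.2 and 29.0 CPM in CTR. The same libraries were high, and its log2 fold change was 0.51 (SE 0.28, adjusted p = 0.312 by edgeR).

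Gbp3, Gbp5 and Gbp7, further guanylate-binding protein genes, and Iigp1, an immunity-related GTPase that coats parasite vacuoles in mice, behaved alike across libraries. Their log2 fold changes were 0.49, 0.66, 0.47 and 0.71 (SE 0.32 to 0.59, adjusted p from 0.397 to 0.520 by edgeR). In all 6 GTPase genes KO 4 was the highest KO library and CTR 2 the highest CTR library, which held together for 3.80% of all genes tested. The GTPase score was 0.57, -0.38, -0.17, 1.34 and -0.056 in KO 1 to KO 5, against -0.099, 0.67, -0.33, -0.86 and -0.68 in CTR 1 to CTR 5. The median log2 fold change of the 6 was 0.59 with all libraries and 0.27 without CTR 4 and CTR 5, with 0 of 6 called in either fit. Without KO 4 and CTR 2, a fit added after the data were seen, it was 0.52, again with 0 of 6 called (0.786% of all genes in that fit).

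Interferon-γ itself, made by T and NK cells, held 0 to 2 counts per library. The 11 markers of T and NK cells each had a count in some library, and 1 passed the filter on low counts. Summed markers of these cells were 5.63 CPM in KO 4 and 6.43 CPM in CTR 2. The ranges were 5.46 to 7.07 CPM in KO and 3.72 to 7.10 CPM in CTR. The part of such cells in the GTPase pattern was not tested. In bulk samples fewer cells of a type and less RNA per cell cannot be told apart.

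**Figure D3:**
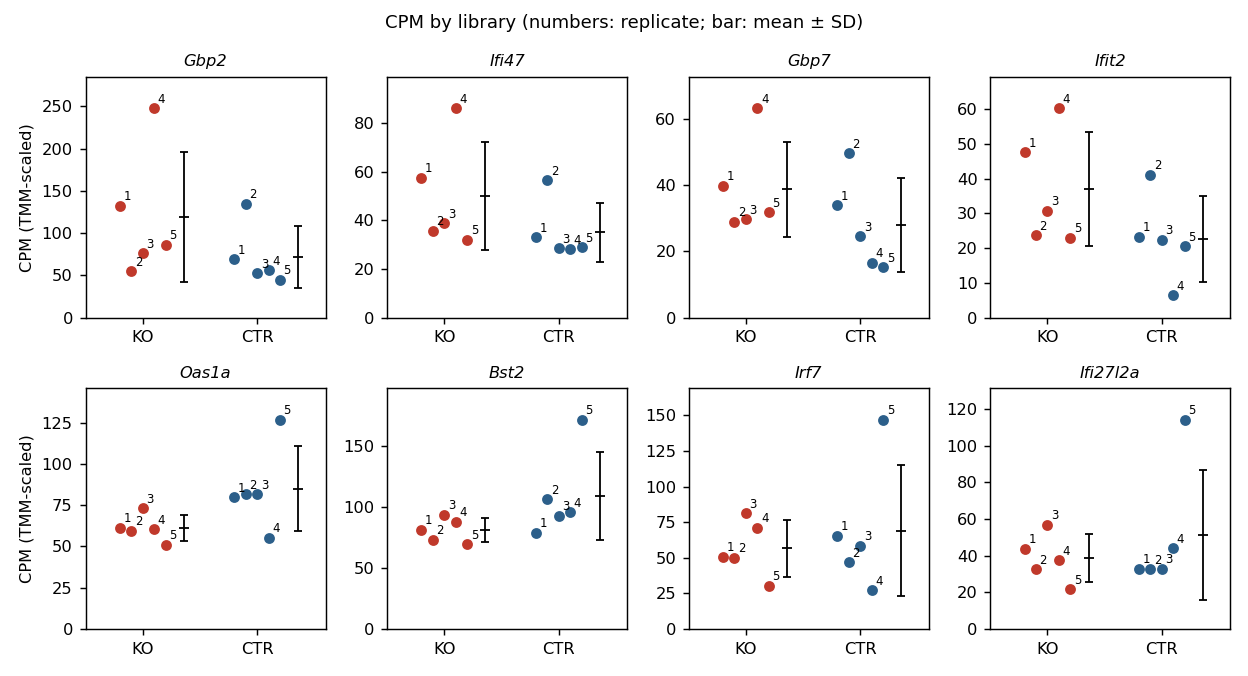
CPM of 8 ISGs in every library (points, numbered by replicate, KO left of CTR) with the mean ± SD of each genotype. KO 4 and CTR 2 lead in Gbp2, Ifi47, Gbp7 and Ifit2, and CTR 5 leads in Oas1a, Bst2, Irf7 and Ifi27l2a.

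None of the 3 transcription factor genes passed the test with all libraries. Irf7 (ENSMUSG00000025498), the factor that amplifies type I interferon production and is itself induced by it, had 50.8, 50.1, 81.5, 71.1 and 30.3 CPM in KO, against 65.6, 47.0, 58.3, 27.0 and 147 CPM in CTR. CTR 5 stood highest and CTR 4 lowest of all 10 libraries. The log2 fold change was -0.28 (SE 0.38, adjusted p = 0.699 by edgeR) and turned to 0.20 without CTR 5 (adjusted p = 0.756). Irf9, the DNA-binding part of the ISRE complex, averaged 53.7 ± 6.41 CPM in KO and 56.6 ± 9.21 CPM in CTR. Its interval of -0.35 to 0.20 on the log2 scale was the narrowest of the 34. Without CTR 4 and CTR 5 its value was -0.23 and was not called (adjusted p = 0.174 by edgeR). CTR 4 and CTR 5, at 45.6 and 47.7 CPM, lay below or within the KO range of 46.8 to 60.4 CPM. The other CTR libraries lay above that range, at 61.3 to 65.3 CPM. Leaving out CTR 4 and CTR 5 thus removes the overlap, and the share of all genes where it does so was not counted. Stat2, its partner, averaged 47.3 ± 8.82 CPM in KO and 40.8 ± 15.1 CPM in CTR, with CTR 4 at 16.6 CPM (log2 fold change 0.21, SE 0.25, adjusted p = 0.661 by edgeR). Without CTR 4 and CTR 5 the value of Stat2 was -0.049.

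In the OAS family, whose enzymes sense double-stranded RNA and switch on RNase L, Oas1a and Oasl1 had the lowest p-values of the whole list and opposite directions. Oas1a (ENSMUSG00000052776) had 61.4, 59.7, 73.2, 60.6 and 51.1 CPM in KO, against 79.9, 81.8, 81.5, 55.3 and 127 CPM in CTR. All KO libraries lay below all CTR libraries other than CTR 4, with which they overlapped. The share of all genes that lose their overlap without CTR 4 was not counted. The log2 fold change was -0.48 (SE 0.18, adjusted p = 0.149 by edgeR). It passed without CTR 4 (-0.60, adjusted p = 0.0408) and without CTR 4 and CTR 5 (-0.40, adjusted p = 0.0391), and was -0.28 without CTR 5 (adjusted p = 0.272). Those fits called 6.49% of all genes without CTR 4 and 8.76% without both.

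Oas1g, a close copy, had 20.7, 21.8, 27.8, 24.3 and 19.9 CPM in KO and 27.3, 23.3, 25.5, 17.8 and 44.1 CPM in CTR, again highest in CTR 5. Its log2 fold change was -0.27 (SE 0.20, adjusted p = 0.468 by edgeR) and -0.035 without CTR 5. Of the 50-base windows of the longest Oas1a transcript 57.6% also occur in Oas1g, so reads of this pair could be assigned to either. Oasl1 (ENSMUSG00000041827), which in mice limits translation of Irf7, had 60.0, 32.4, 62.2, 51.5 and 60.4 CPM in KO, against 48.1, 18.5, 21.9, 39.4 and 42.8 CPM in CTR. Its high and low CTR libraries were other ones than those of the rest of the family. The log2 fold change was 0.64 (SE 0.26, adjusted p = 0.177 by edgeR). Oas2, Oas3 and Oasl2 had log2 fold changes of 0.12, -0.21 and -0.047 with adjusted p from 0.721 to 0.903, and the value of Oas3 was -0.42 without CTR 4 and -0.044 without CTR 5. CTR 5 was the highest CTR library in 5 of the 6 OAS genes and CTR 4 the lowest in 5 of 6.

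Among other antiviral effectors Bst2 and Ifi27l2a held the highest levels per length of all members, at 72.9 ± 9.04 and 84.2 ± 28.9 FPKM in KO and 96.1 ± 34.7 and 110 ± 79.7 FPKM in CTR (the authors' values, SD, n = 5 each). Bst2 (ENSMUSG00000046718) encodes tetherin, which holds budding virus particles on the cell. It had 81.4, 73.3, 93.9, 88.0 and 69.6 CPM in KO, against 79.1, 107, 93.1, 96.0 and 172 CPM in CTR. The KO values lay close together and CTR 5 stood above all other libraries. Its log2 fold change was -0.43 (SE 0.18, adjusted p = 0.198 by edgeR) and -0.20 without CTR 5. Ifi27l2a (ENSMUSG00000079017), a small interferon-induced protein gene, had 43.8, 32.6, 56.9, 37.5 and 21.6 CPM in KO, against 33.0, 32.5, 33.0, 44.0 and 114 CPM in CTR. Its log2 fold change was -0.41 (SE 0.36, adjusted p = 0.544 by edgeR) and turned to 0.12 without CTR 5.

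Rsad2 encodes viperin, an enzyme that makes a chain-terminating nucleotide. It had 49.4, 47.2, 52.0, 64.5 and 38.9 CPM in KO, against 36.6, 49.5, 45.4, 22.6 and 40.3 CPM in CTR, and the genotypes overlapped. The log2 fold change was 0.37 (SE 0.19, adjusted p = 0.275 by edgeR) and 0.20 without CTR 4 and CTR 5. Cmpk2, its neighbour, which encodes a nucleotide kinase, had 0.22, Isg20, an exonuclease gene, 0.23, Rtp4 -0.20 and Xaf1 -0.18, with adjusted p from 0.425 to 0.619. Ifi44 was the member nearest the threshold for use, with 1 CPM or more in 5 libraries on total counts, a mean of 1.21 ± 0.568 CPM in KO and 0.730 ± 0.476 CPM in CTR (log2 fold change 0.72, SE 0.46, adjusted p = 0.383 by edgeR). CTR 5, which led in Bst2, Ifi27l2a, Irf7 and Oas1a, also had the highest summed fibroblast markers (137 CPM, against 30.1 to 63.7 CPM in the other CTR libraries and 48.8 to 65.3 CPM in KO). It likewise had the highest summed mesothelial markers, at 34.6 CPM. Summed conventional dendritic cell markers were the lowest of all 10 libraries in CTR 5, at 354 CPM, and the highest in CTR 4, at 1373 CPM. They were 569 to 1116 CPM in the other CTR libraries and 465 to 1010 CPM in KO. All 6 fibroblast, all 5 mesothelial and all 7 dendritic cell markers had counts. The filter on low counts was passed by 5 fibroblast, 5 mesothelial and 3 dendritic cell markers. The part of such cells in these values was not tested.

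IFIT proteins bind viral RNA ends. Ifit2 (ENSMUSG00000045932) had 47.6, 23.7, 30.7, 60.1 and 23.0 CPM in KO, against 23.2, 41.1, 22.3, 6.35 and 20.4 CPM in CTR. It was high in the libraries that led the GTPases, KO 4, KO 1 and CTR 2, and lowest in CTR 4. Its log2 fold change was 0.70 (SE 0.40, adjusted p = 0.324 by edgeR) and 0.37 without CTR 4 and CTR 5. Ifit1 had -0.26 (SE 0.23, adjusted p = 0.541 by edgeR), which passed only without CTR 4 (-0.45, adjusted p = 0.0473), among 21 settings. Ifit3 had 11.7, 5.64, 11.4, 11.1 and 6.55 CPM in KO, against 9.78, 12.0, 10.8, 5.68 and 14.5 CPM in CTR. The fold change was -0.19 on the log2 scale (SE 0.26, adjusted p = 0.71 by edgeR), with -0.34 without CTR 4 and -0.042 without CTR 5. Its copy Ifit3b had 0.637, 0.820, 0.817, 1.13 and 1.44 CPM in KO, against 1.06, 1.69, 1.69, 0.338 and 1.50 CPM in CTR, a log2 change of -0.38 (SE 0.38, adjusted p = 0.589 by edgeR). In both genes KO and CTR overlapped widely. Of the 50-base windows of the longest Ifit3b transcript 44.5% occur in Ifit3, so the division of reads between them is uncertain.

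Isg15, a ubiquitin-like protein gene that is joined to other proteins during the interferon response, had 10.8, 7.07, 8.81, 11.1 and 7.70 CPM in KO, against 6.26, 8.65, 10.2, 6.55 and 16.4 CPM in CTR. CTR 5 was highest, and the log2 fold change of -0.080 (SE 0.25, adjusted p = 0.879 by edgeR) turned to 0.20 without it. Usp18, which removes ISG15 and damps the interferon receptor, had 9.56, 10.5, 13.9, 10.4 and 7.24 CPM in KO, against 13.0, 11.1, 14.8, 10.3 and 22.5 CPM in CTR. Its values were lower in KO on average, by a log2 value of -0.48 (SE 0.22, adjusted p = 0.234 by edgeR). CTR 5 stood highest, and the value was -0.25 without it. Mx1, a GTPase against influenza-type viruses, had 7.07, 7.99, 7.87, 7.82 and 3.96 CPM in KO, against 5.98, 5.02, 7.34, 2.97 and 7.48 CPM in CTR. KO 5 and CTR 4 were low, and the log2 fold change was 0.27 (SE 0.25, adjusted p = 0.572 by edgeR) and 0.11 without CTR 4. Mx2 had 0.025 (SE 0.34), and 6.55% of its 50-base windows also occur in Mx1.

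Of the cytosolic sensors, Ifih1, which encodes the RNA sensor MDA5, had the lowest SD relative to its mean among members in KO, with 31.9 ± 2.81 CPM in KO and 29.9 ± 7.74 CPM in CTR (SD, n = 5 each). Zbp1, a sensor of Z-form nucleic acids that can start necroptosis, had 22.3, 11.7, 18.0, 30.1 and 15.7 CPM in KO, against 20.9, 32.4, 20.8, 14.5 and 25.4 CPM in CTR. It followed the GTPases in KO 4 and CTR 2. The log2 fold change was -0.22 (SE 0.25, adjusted p = 0.640 by edgeR). Cxcl9, a T cell chemokine induced by interferon-γ, had 2.38, 0.717, 2.68, 3.49 and 1.72 CPM in KO, against 2.74, 4.09, 1.30, 0.946 and 1.18 CPM in CTR. KO 4 and CTR 2 again led, and the log2 fold change was 0.088 (SE 0.46, adjusted p = 0.929 by edgeR), against -0.30 without CTR 4 and CTR 5. Cxcl10, a related chemokine, was the 1 member under the threshold for use, with 1 CPM or more in 1 library, 0.532 ± 0.158 CPM in KO and 0.665 ± 0.378 CPM in CTR.

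**Figure D4:**
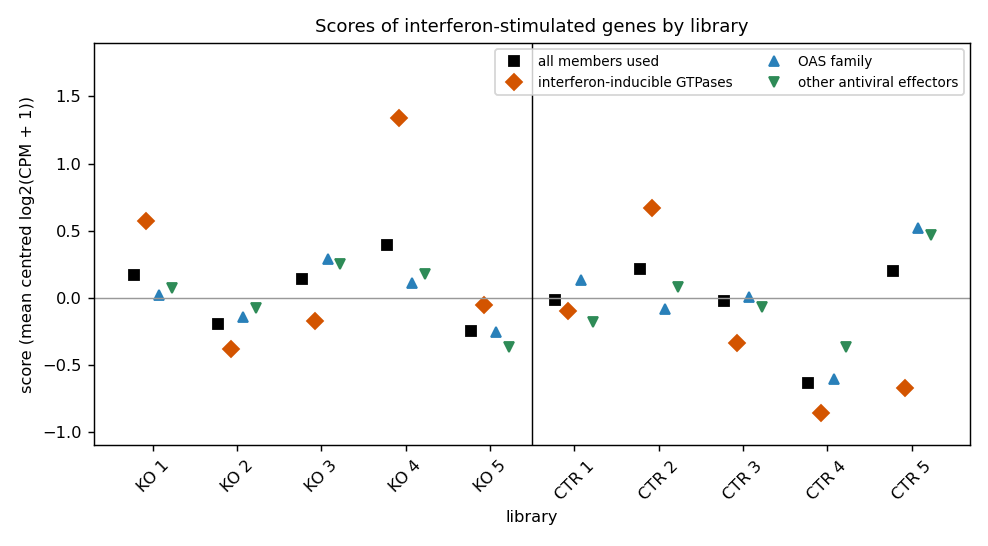
Score of all 34 members and of 3 roles in each library (mean of centred log2(CPM + 1), KO left of CTR). GTPase scores reach 1.34 in KO 4 and 0.67 in CTR 2, OAS and other effector scores peak in CTR 5, and CTR 4 is lowest in all 4 sets of CTR values plotted.

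Promoter windows were searched for the elements that interferon signals act on, since GTPase genes moved together across libraries and OAS genes and Bst2 followed other libraries. Windows ran from 250 bases before to 50 bases after each start in RefSeq (GRCm38.p6, another build than the authors' GRCm39), and 26 of the 34 members had one. The ISRE was searched on both strands as GAAA, any 2 bases (NN) and GAAA again, and the GAS as the palindrome TTCNNNGAA. An ISRE stood in 15 of 31 member windows (48.4%), against 3.44% of all 32851 windows, and a GAS in 6 (19.4%), against 8.30%. Of the 5 GTPase genes with a window 4 held an ISRE and 2, Gbp5 and Gbp7, also a GAS. Below are Gbp2 (chr3:142620413-142620712, plus strand), Gbp7 (chr3:142530086-142530385, plus strand), Oas1a (chr5:120907476-120907775, minus strand) and Bst2 (chr8:71537423-71537722, minus strand), 5′ to 3′ with matches in capitals, shown as examples of the genes that led in different libraries. Neighbouring ISRE matches in Oas1a share bases, and in Bst2 they share bases with each other and with the GAS.
Gbp2: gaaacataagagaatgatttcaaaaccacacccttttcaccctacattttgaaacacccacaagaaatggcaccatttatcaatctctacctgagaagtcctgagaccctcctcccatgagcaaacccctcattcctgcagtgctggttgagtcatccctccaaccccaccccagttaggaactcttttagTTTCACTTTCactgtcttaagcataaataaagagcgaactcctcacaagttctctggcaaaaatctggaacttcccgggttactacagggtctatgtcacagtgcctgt
Gbp7: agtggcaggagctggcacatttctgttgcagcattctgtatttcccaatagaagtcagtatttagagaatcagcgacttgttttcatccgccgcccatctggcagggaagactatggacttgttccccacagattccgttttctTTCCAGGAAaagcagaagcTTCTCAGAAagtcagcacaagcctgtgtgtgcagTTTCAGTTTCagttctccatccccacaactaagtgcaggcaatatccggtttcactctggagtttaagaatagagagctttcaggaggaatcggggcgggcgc
Oas1a: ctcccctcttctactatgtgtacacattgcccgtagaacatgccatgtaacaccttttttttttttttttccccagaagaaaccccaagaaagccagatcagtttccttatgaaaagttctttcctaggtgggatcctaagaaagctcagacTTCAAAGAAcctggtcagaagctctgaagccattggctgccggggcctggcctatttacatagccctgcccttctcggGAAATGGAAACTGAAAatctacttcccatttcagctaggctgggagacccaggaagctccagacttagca
Bst2: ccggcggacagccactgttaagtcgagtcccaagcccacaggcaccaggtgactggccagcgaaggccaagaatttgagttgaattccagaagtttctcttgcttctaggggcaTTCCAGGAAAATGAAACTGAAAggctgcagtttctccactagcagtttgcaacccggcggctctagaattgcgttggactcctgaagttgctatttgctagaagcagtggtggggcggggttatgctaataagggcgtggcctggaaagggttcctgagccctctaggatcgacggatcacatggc

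The Gbp2 window holds 1 ISRE, on the reverse strand, and the Gbp7 window holds 2 GAS matches before 1 ISRE. Oas1a and Bst2 each hold 2 ISRE matches and 1 GAS. Irf7, Ifi47, Oasl1, Oasl2, Irf9, Cmpk2, Xaf1, Ifi44 and Cxcl9 had no match in their windows. A match is a description of the letters, not a binding site. Gbp7, which led in KO 4 and CTR 2, and Oas1a and Bst2, which led in CTR 5, hold both elements.

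Genes that make, receive or limit interferon were measured beside the members. Of 21 interferon ligand genes 18 had 0 counts in every library and the list held 22 counts in all, at most 3 for 1 gene in a library, which is also the limit that a count of 0 allows (0.156 to 0.192 CPM). None of the 10 tested receptor and JAK-STAT genes passed. Of 25 genes of interferon induction and sensing, 0 passed with all libraries. Without CTR 4 and CTR 5, 2 of the 25 were called higher, where 5.13% of all genes were: Tlr4, the endotoxin receptor (log2 fold change 1.70, adjusted p = 0.0375, against 1.33 with all libraries), and Tlr9, a receptor for bacterial DNA (0.63, adjusted p = 0.0311, against 1.04 with all libraries). Of 17 negative regulators 0 passed with all libraries. Without CTR 4 and CTR 5, 1 of the 17 was called higher, the transcription factor gene Foxo3 (0.49, adjusted p = 0.0279, against 0.67 with all libraries).

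In a list of 70 other ISGs, 58 were tested, and 1 fell, where 2.11% of all genes tested did: Lgals9, which encodes galectin-9, averaged 139 ± 16.2 CPM in KO and 213 ± 37.6 CPM in CTR (log2 fold change -0.61, SE 0.13, adjusted p = 0.0246 by edgeR). It lost its call without KO 1, KO 2, KO 4 or CTR 3 (adjusted p up to 0.0766), and without KO 4 and CTR 2 together (0.088), with log2 fold changes of -0.63 to -0.57 in those fits. The median over the 58 was -0.0022. Without CTR 4 and CTR 5, a fit that called 3.63% of all genes lower, 6 of the 58 fell, Lgals9, Sp100, Pnpt1, Slfn5, Slfn9 and Mlkl, with log2 fold changes from -0.60 to -0.34. Among 22 tested genes of other interferon-inducible GTPases and interferon-γ-type genes 0 passed, against 3.94% of all genes tested. In value 18 of the 22 were above 0, against 49.2% of all genes tested, and the median was 0.38, against -0.0058. Without CTR 4 and CTR 5 0 of the 22 were called, against 8.76% of all genes in that fit, and their median there is not given here.

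The pattern over libraries held in these non-members too. KO 4 was the highest KO library in 19 of the 22 and CTR 2 the highest CTR library in 18, and both held in 17 (77.3%), against 3.80% of all genes tested and 19.0% of the 58 other ISGs. Ciita, the master factor of MHC class II genes and a target of interferon-γ, had 33.7, 22.3, 19.7, 54.9 and 19.5 CPM in KO, against 10.2, 20.6, 6.32, 4.80 and 2.74 CPM in CTR. KO 4 and CTR 2 again led their genotypes, and only CTR 2 reached into the KO range (log2 fold change 1.74, SE 0.47, adjusted p = 0.0587 by edgeR).

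**Figure D5:**
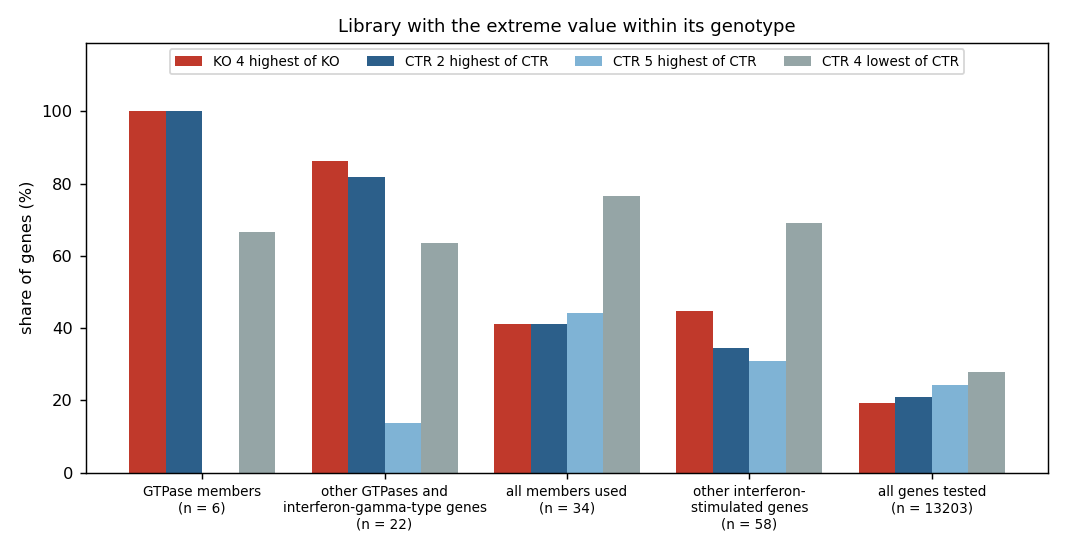
Share of genes (%) in which KO 4 was the highest KO library, CTR 2 or CTR 5 the highest CTR library, or CTR 4 the lowest CTR library, for 5 sets of genes. KO 4 and CTR 2 lead in 100% of the 6 GTPase members and in 86.4% and 81.8% of the 22 non-member genes of that kind, against 19.2% and 20.9% of all genes tested.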

How the data were processed

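Per the submitters' processing notes, CASAVA 1.8, HISAT2, SAMtools 1.3.1 and edgeR were used with build GRCm39, with no role or order given. For the read counter, annotation and strand setting: not given in the sources used here. One table deposited by the authors holds raw counts per gene and FPKM values, 10 columns each, matched to samples by library number. FPKM served for levels compared between genes and for gene length. Symbols came from a separate name table, which matched 53274 of 53465 genes.

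Counts were fitted in R 4.3.3 with edgeR 4.0.16 (filterByExpr defaults, 13203 genes holding 99.9% of counts; TMM scaling; quasi-likelihood test with genotype as the only term, two-sided, Benjamini-Hochberg adjustment, threshold 0.05). CPM use TMM-scaled library sizes, while the use of members was decided on total counts. Each SE was derived from the fitted log2 value and its F statistic. Scores use a pseudocount of 1. The limit of 3 counts that a count of 0 allows covers counting error only. The fit was tested on simulated counts with the same dispersion for every gene and no deviating library. Members varied more than genes in general, so that test says little about them.

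Alternatives were DESeq2 1.42.0 size factors and Wald test, library size only, other filters, limma 3.58.1 voom with quality weights, a robust fit, the replicate number as a block, each library left out, CTR 4 and CTR 5 left out, and a length and GC trend (mgcv 1.9.3; GC from GENCODE M21). A fit without KO 4 and CTR 2 was added after seeing the data. CTR 4 and CTR 5 were likewise picked for leaving out from the principal components of these same data. Members given for every library were the 8 with the lowest p, the most abundant of each role by FPKM, and the close pairs Ifit3 with Ifit3b and Oas1a with Oas1g. Other genes named are Gnas and the called genes of each pathway list; 1 gene that the rule also names is not reported here. Those called only without CTR 4 and CTR 5, and Ciita, were chosen after their values were seen. The members and lists were chosen with earlier results of these data known.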

Additional observations from a re-analysis of the deposited data

Results flagged for a closer look

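Within each genotype of 5 libraries, a library was picked out where its gap to the nearest other library exceeded Dixon's 95% critical share of the genotype's range, which chance does in about 1 in 20 groups. This held for 6 of 90 groups tested, which is near that share. They were 4 of 68 gene and genotype groups, and 2 scores that are not independent, since the score of all members includes the transcription factors. Ifi27l2a stood at 114 CPM in CTR 5, against 32.5 to 44.0 CPM in the other CTR libraries. Gbp2 stood at 135 CPM in CTR 2, against 44.9 to 69.1 CPM in the others, and Ifi47 at 56.4 CPM in CTR 2, against 28.2 to 33.0 CPM. Mx1 stood at 3.96 CPM in KO 5, against 7.07 to 7.99 CPM in the other KO libraries. The score of all members was -0.63 in CTR 4, against -0.022 to 0.21 in the other CTR libraries, and that of the transcription factors was -0.86 in CTR 4, against 0.086 to 0.37.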

How the results depend on the processing

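Across 21 settings besides the main fit 0 members were called higher. The number of members called lower was 0 in the main fit and 1 (Oas1a) with voom and without CTR 4 and CTR 5. It was from 0 to 2 (Oas1a and Ifit1, without CTR 4) with 1 library left out. The median log2 fold change of the members stayed between -0.069 and 0.19 with 1 library left out. The number of genes called over the whole table was 520, against 261 with no filter on low counts, 1289 by DESeq2, 1919 by voom, 1185 without CTR 4 and CTR 5, 104 without KO 4 and CTR 2, and 62 to 868 with 1 library left out. With the replicate number as a block it was 104. The labels do not say that equal numbers pair libraries, deviations of equal numbers correlated between -0.13 and 0.058, and the block called no member. Lgals9 lost its call with the block (adjusted p = 0.0566 by edgeR, log2 fold change -0.60).

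In value, 24 of the 34 members used kept their sign in all 21 settings (13 above 0, 11 below), and 10 did not. With voom, Isg15 had 0.086, Ifi27l2a 0.088 and Cxcl9 -0.11. Without CTR 4 and CTR 5, Isg15 had 0.12, Ifi27l2a 0.23, Stat2 -0.049, Ifih1 -0.094 and Cxcl9 -0.30. Without KO 4 and CTR 2, Mx2 had -0.068 and Irf9 0.012. With 1 library left out, values ranged from -0.20 to 0.20 for Isg15, -0.19 to 0.23 for Mx2, -0.054 to 0.22 for Oas2, -0.18 to 0.066 for Oasl2, -0.60 to 0.12 for Ifi27l2a, -0.48 to 0.20 for Irf7, -0.021 to 0.23 for Ifih1, -0.14 to 0.50 for Cxcl9 and -0.54 to 0.012 for Cxcl10. The cause of these changes was not tested. With library size alone the median over all genes moved to 0.031. Low counts limit Ifit3b, Mx2, Ifi44, Cxcl9 and Iigp1, whose lowest libraries held between 4 and 14 counts.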
